A study of Homo sapiens with 4 samples.

Results

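The genes described here are human genes with a ZNF symbol and a number that were well counted in SH-SY5Y cells, a neuroblastoma cell line widely taken as a stand-in for neurons. Members were chosen by their read counts: a gene was a member when it was listed as protein-coding, its symbol was ZNF followed only by digits, and it had at least 100 counts in each of the 4 libraries. These are the same counts that were tested. Of 476 protein-coding ZNF genes listed, 315 met this, out of 58243 genes in all. The control group was 2 libraries of untreated cells, control a and control b. The other group was 2 libraries of cells exposed for 8 h to sodium nitroprusside (SNP), which gives off nitric oxide; per the labels the cells had been differentiated with retinoic acid, and the sequenced SNP dose is not given in the sources used here. The labels name the SNP group an oxidized state. The labels describe repeated treatments within a single experiment and do not say which wells gave which library, so p-values measure the spread between these libraries, which may be technical.

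Zinc finger proteins of the C2H2 kind are the most numerous transcription factors of the human genome. Each finger is a short loop in which a pair of cysteines and a pair of histidines hold a zinc ion, and a row of fingers reads a row of bases in DNA. Many of these proteins also carry a KRAB box, which binds the co-repressor TRIM28 and through it the enzymes that lay down silent chromatin, above all over transposable elements. Others carry a SCAN box, through which they pair with each other, or neither box. KRAB zinc finger genes arose by repeated duplication and many stand side by side on chromosome 19.

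To show the repeat that defines these proteins, the first finger followed by a linker is given from the coding sequence for the 3 largest rises and the 3 largest falls among members that hold such a unit. Sequences are from GENCODE 29 transcripts (GRCh38), read 5′ to 3′. Capitals mark the codons of the 2 cysteines, the 2 histidines and the linker that joins one finger to the next.
ZNF316: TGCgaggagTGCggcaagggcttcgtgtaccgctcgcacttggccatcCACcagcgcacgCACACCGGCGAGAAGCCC
ZNF768: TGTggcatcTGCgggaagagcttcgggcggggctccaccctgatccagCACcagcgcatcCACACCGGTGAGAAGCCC
ZNF337: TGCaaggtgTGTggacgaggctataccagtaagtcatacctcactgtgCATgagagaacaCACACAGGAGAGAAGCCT
ZNF358: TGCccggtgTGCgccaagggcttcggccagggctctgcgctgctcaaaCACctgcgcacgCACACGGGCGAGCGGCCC
ZNF536: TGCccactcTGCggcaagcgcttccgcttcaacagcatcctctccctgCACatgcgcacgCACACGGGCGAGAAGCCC
ZNF574: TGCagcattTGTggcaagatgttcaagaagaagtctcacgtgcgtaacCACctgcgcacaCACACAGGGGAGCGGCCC
The first 3 rose and the last 3 fell after SNP. They lie in coding exons at chr7:6652719-6652796 (plus strand), chr16:30525276-30525353 (minus), chr20:25676415-25676492 (minus), chr19:7520035-7520112 (plus), chr19:30443956-30444033 (plus) and chr19:42080095-42080172 (plus). Each unit has 78 bases. The ZNF316 unit holds 25 guanines and 28 cytosines, that of ZNF337 22 and 17, that of ZNF358 27 and 30, and that of ZNF536 18 and 33. The linker was found 1706 times in 267 members, in 250 spellings. The commonest, ACTGGAGAGAAACCC, made up 17.1% of the linkers and was present in 94 members.

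The ZNF genes were moderately abundant. Median counts were 305 (control a), 248 (control b), 404 (SNP a) and 395 (SNP b), and the highest single count was 7180. All 4 medians follow the library totals, which ran from 5613144 in control b to 8056550 in SNP a. Per length, the median member had a mean level of 45.2 TPM (the length-scaled unit of the deposited tables), against 30.5 TPM for the 14759 genes tested. On the CPM scale, that is counts scaled to library size, the members summed to 24264 and 23396 in control and 25824 and 25665 in SNP libraries. The summed level was higher in both SNP libraries, and the groups did not overlap.

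The highest levels per length were those of ZNF460, ZNF704, ZNF121, ZNF664 and ZNF146. ZNF460, a KRAB member, had 416 and 442 TPM in control and 390 and 443 TPM in SNP libraries. Its groups overlapped in TPM. In CPM, at 313 and 326 against 274 and 297, both SNP values were under both control values. ZNF704, which has a single match to the finger pattern, had 327 and 303 TPM in control and 301 and 290 TPM in SNP libraries. ZNF121 had 260 and 269 against 261 and 278 TPM. In CPM it was lower after SNP, at 405 and 410 against 379 and 386, with a log2 fold change of -0.094. None of these 3 passed the test, with adjusted p-values of 0.213, 0.0796 and 0.475 (edgeR quasi-likelihood, Benjamini-Hochberg over all genes tested). ZNF664 had 161 and 145 TPM in control and 283 and 243 TPM in SNP libraries, and ZNF146 146 and 140 against 285 and 252 TPM. Both rose, by 0.66 and 0.79 on the log2 scale.

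The threshold was set mainly by the shallowest library. For 277 of the 315 members the smallest count was in control b. Just inside the threshold, ZNF689 had 102, 100, 111 and 117 counts and ZNF727 165, 100, 219 and 196, in the order control a, control b, SNP a, SNP b. Just outside it, ZNF599 had 111, 99, 156 and 114 counts and ZNF16 122, 99, 135 and 145. A total of 44 ZNF genes were left out through a control library alone, and 12 of these were called higher after SNP and 0 lower. These genes were picked by the tested counts, with both SNP counts at or above 100 and a control count below it. A lean to higher calls was thus built in, and the background of 13.6% is no fair measure for them. A single gene, ZNF581, was left out through an SNP library alone; its counts were 105 and 119 (control) and 69 and 90 (SNP). With a mean of at least 100 counts in place of the minimum, 352 genes qualified, of which 91 were called higher and 23 lower. The mean rule takes in genes with a low control count and higher SNP counts, such as ZNF23 with 80, 71, 243 and 186 counts.

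Among the 315 members, 80 were higher after SNP and 23 lower (edgeR quasi-likelihood, Benjamini-Hochberg adjusted p-value below 0.05 over the whole table). Called members made up 32.7%, against a background of 26.2% for all genes tested. The background also holds genes with fewer counts, in which a change is harder to call. Of the 135 tested ZNF genes outside the count threshold, 12.6% were called. Higher members were 25.4% of the list against 13.6% of all genes, and lower members 7.30% against 12.6%. The median log2 fold change was 0.14 over the members and -0.0042 over all genes tested. The direction of each call is that gene's own result. Most changes were small: 264 members had an absolute log2 fold change under 0.5, and 3 reached 1, namely ZNF316, ZNF768 and ZNF358. The groups did not overlap in 229 members (background 64.0%), with SNP above control in 156 (background 31.7%) and below it in 73 (background 32.3%). In bulk samples, fewer cells with a transcript and less of it per cell cannot be told apart. DESeq2's Wald test called 52 of the 80 higher and 17 of the 23 lower. Without control a, 44 members were called higher and 14 lower, and without control b 36 and 14.

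**Figure D1:**
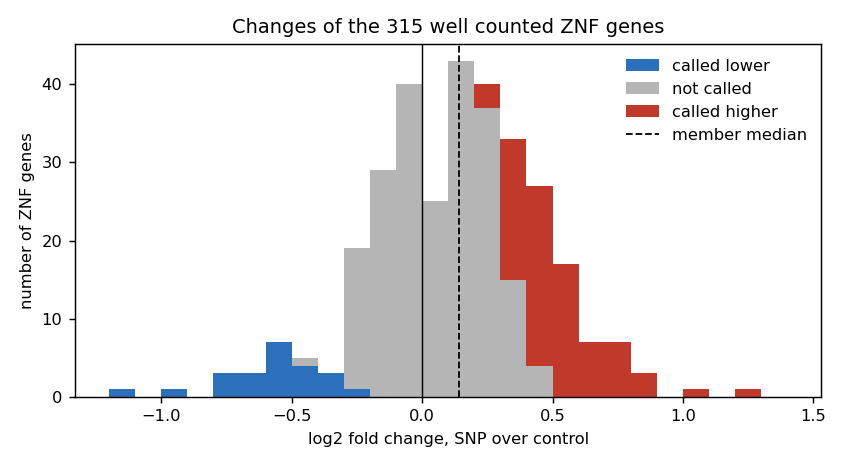
Number of ZNF genes (vertical axis) by log2 fold change of SNP over control (horizontal axis, bins of 0.1), coloured by call. The dashed line is the member median of 0.14; the 80 genes called higher lie to the right and the 23 called lower to the left of 0.

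The largest rise was in ZNF316 (ENSG00000205903; chromosome 7, 6637322 to 6656432, plus strand), a KRAB member. Its level was 74.2 and 82.0 CPM in control and 180 and 202 CPM in SNP libraries. Both SNP values were more than 2-fold both control values. The means were 78.1 ± 5.55 and 191 ± 15.7 CPM (SD, n = 2 each), a log2 fold change of 1.29 (SE 0.111) with an adjusted p-value of 5.8e-08 (edgeR quasi-likelihood, Benjamini-Hochberg).

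ZNF768 (ENSG00000169957; chromosome 16, 30524001 to 30526821, minus strand), with 10 fingers and no KRAB box, came next. It had 23.7 and 25.2 CPM in control and 49.5 and 54.1 CPM in SNP libraries. The rise was 1.08 on the log2 scale (SE 0.145; adjusted p-value 1.7e-05, edgeR quasi-likelihood, Benjamini-Hochberg). ZNF337, a KRAB member on chromosome 20 (25674215 to 25696841, minus strand), went from 64.5 and 65.0 to 115 and 126 CPM. Of its 75-base windows, the length of a read, 72.1% also occur in another gene, ZNF337-AS1 among them, so the division of its reads is uncertain.

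A further pair of KRAB members on chromosome 19 followed. ZNF441 (11767000 to 11784078, plus strand) had 19.9 and 20.4 CPM in control and 39.3 and 35.1 CPM in SNP libraries, and ZNF667 (56439325 to 56478065, minus strand) had 39.0 and 33.2 against 63.9 and 62.0 CPM. Neither group of values overlapped the other for either gene. ZNF513, linked to inherited retinal degeneration, rose from 17.9 and 18.6 to 32.2 and 34.4 CPM. ZNF146, a protein made almost wholly of fingers, rose from 130 and 122 to 237 and 200 CPM.

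ZNF189, ZNF322 and ZNF112 complete the 10 largest rises, with log2 fold changes of 0.77, 0.76 and 0.75. ZNF322 shares 22.5% of its windows with other genes, the pseudogene ZNF322P1 among them, and its SNP values were far apart, at 100 and 74.8 CPM over controls of 54.4 and 48.6. Adjusted p-values of these 10 genes ran from 5.8e-08 to 6.6e-04 (edgeR quasi-likelihood, Benjamini-Hochberg).

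None of the 10 members with the largest falls matched the KRAB pattern. ZNF358 (ENSG00000198816; chromosome 19, 7515292 to 7521026, plus strand) fell most. It had 44.4 and 49.7 CPM in control and 17.5 and 25.8 CPM in SNP libraries. The SNP values differed from each other more than the controls did, and both were well under them. On the log2 scale it fell by 1.12 (SE 0.171; adjusted p-value 6.3e-05, edgeR quasi-likelihood, Benjamini-Hochberg). Of its windows, 25.2% occur in another gene, AC008878.1 among them.

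ZNF536 (chromosome 19, 30228290 to 30713538, plus strand), a repressor that restrains retinoic acid-driven neuronal differentiation, had 301 and 271 CPM in control and 128 and 162 CPM in SNP libraries. Its log2 fold change was -0.98 (SE 0.112; adjusted p-value 2.6e-06, edgeR quasi-likelihood with Benjamini-Hochberg). ZNF423 (chromosome 16, 49487524 to 49857919, minus strand), a partner of early B cell factors that is needed for the retinoic acid response of neuroblastoma cells, had 243 and 247 CPM in control and 142 and 169 CPM in SNP libraries. Its close relative ZNF521 (chromosome 18, 25061926 to 25352190, minus strand) had 24.5 and 25 against 14.1 and 14.7 CPM. Each of these 3 genes was lower in both SNP libraries than in either control, with log2 fold changes of -0.98, -0.66 and -0.78.

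The other large falls were in ZNF574, ZNF865, ZNF687, ZNF335, ZNF142 and ZNF213, with log2 fold changes of -0.79, -0.78, -0.64, -0.64, -0.58 and -0.56. With per-library offsets on length, GC and guanine minus cytosine, described with the composition results, the calls of ZNF142 (-0.17), ZNF865 (-0.37) and ZNF213 (-0.31) were lost. ZNF335, a subunit of a nuclear receptor coactivator complex whose loss causes microcephaly, went from 44.4 and 41.0 to 27.1 and 27.9 CPM. ZNF687 went from 108 and 110 to 62.7 and 77.0 CPM. ZNF213 was the weakest of these calls. It had 23.1 and 25.2 CPM in control and 13.6 and 19.2 CPM in SNP libraries, and its adjusted p-value of 0.0356 (edgeR quasi-likelihood, Benjamini-Hochberg) became 0.137 with DESeq2's Wald test and 0.255 without SNP a.

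**Figure D2:**
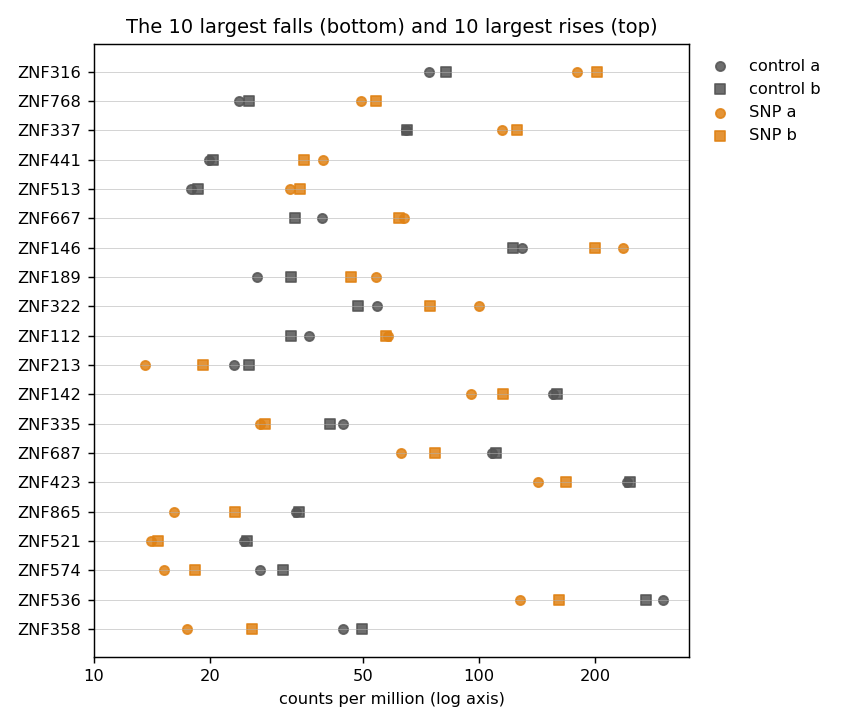
Level in each library (horizontal log axis, CPM) of the ZNF genes that make up the 10 largest rises and 10 largest falls, with circles for replicate a and squares for replicate b, grey for control and orange for SNP. For every gene both SNP points lie on one side of both control points, from ZNF316 (74.2 and 82.0 against 180 and 202 CPM) at the top to ZNF358 (44.4 and 49.7 against 17.5 and 25.8 CPM) at the bottom.

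Protein classes were read from the translated coding sequences. A KRAB box was matched in 213 members and not in 101, and a SCAN box in 14; ZNF883 had no coding sequence in GENCODE 29 and was not classed. Of the 213 KRAB members, 53 were called higher and 4 lower, with a median log2 fold change of 0.17. The 4 lower were ZNF792, ZNF69, ZNF557 and ZNF8, all on chromosome 19, with log2 fold changes of -0.55, -0.51, -0.48 and -0.32. Of the 101 members without the box, 27 were higher and 19 lower, with a median of 0.046. The rate of higher calls was thus 24.9% with and 26.7% without a KRAB box (background 13.6%). That of lower calls was 1.88% and 18.8% (background 12.6%). With the composition offsets 33 KRAB members were higher and 6 lower, and 23 of the others were higher and 10 lower. The difference between the classes was not tested. Genes named beside a count of 5 or fewer were named after their values were seen.

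The SCAN members were few, and 7 of the 14 were called higher (background 13.6%). They were ZNF263, ZNF24, ZNF202, ZNF197, ZNF274, ZNF397 and ZNF483, with log2 fold changes from 0.73 down to 0.48. ZNF24, which takes part in keeping progenitor cells cycling, had 177 and 168 CPM in control and 276 and 241 CPM in SNP libraries. ZNF263 had 31.3 and 24.7 against 47.0 and 46.3 CPM, and 31.1% of its windows occur in another gene. The single SCAN member called lower was ZNF213.

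The number of fingers varied from 0 to 35, with a median of 11. Members with 5 or fewer fingers had a median log2 fold change of 0.095 (n = 44), those with 6 to 10 one of 0.12 (n = 102), those with 11 to 15 one of 0.18 (n = 112) and those with 16 or more one of 0.11 (n = 56). The Spearman correlation of finger number with the log2 fold change was 0.102 across 314 members, a description of genes that share libraries. The pattern found no finger in 5 members, ZNF720, ZNF738, ZNF839, ZNF862 and ZNF503.

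Chromosome 19 held 155 of the members. Of these, 29 were called higher and 8 lower, 18.7% and 5.16% (background 13.6% and 12.6%), with a median log2 fold change of 0.14. On the other chromosomes 51 of 160 were higher and 15 lower, 31.9% and 9.38%, with the same median of 0.14. Within the KRAB members the rate of higher calls was 19.7% on chromosome 19 (27 of 137) and 34.2% elsewhere (26 of 76). With the composition offsets 14 members on chromosome 19 were called higher and 8 lower, and 42 and 8 on the other chromosomes.

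Neighbouring genes were read as runs of at least 5 members with gaps of at most 500000 bases; there were 14 runs, 9 of them on chromosome 19. The runs differed in how many members were called. At the end of chromosome 12 (132918308 to 133214831) all 7 members carried a KRAB box and 5 were called higher (background 13.6%). In that run ZNF605 had 71.6 and 66.8 CPM in control and 107 and 100 CPM in SNP libraries. ZNF268 had 81.7 and 82.4 against 132 and 124 CPM. ZNF26, ZNF84 and ZNF891 rose by 0.39, 0.41 and 0.49 on the log2 scale, while ZNF140 and ZNF10 had log2 fold changes of -0.048 and 0.22 and did not pass.

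On chromosome 19 the run from 43827292 to 44500524, which reaches from ZNF283 to ZNF180, had 6 of 11 members called higher (background 13.6%). Its median was 0.34. In the run from 19668796 to 21852125, which reaches from ZNF101 to ZNF43 and has 17 KRAB members of 18, 0 were called in either direction (edgeR quasi-likelihood, Benjamini-Hochberg). Its log2 fold changes lay between -0.15 and 0.26. The run between ZNF558 and ZNF562 also had 0 of 8 members called, with log2 fold changes between -0.20 and 0.19. The largest run, 30 members between ZNF264 and ZNF446 near the end of the chromosome, had 5 higher and 1 lower.

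The change of the ZNF genes went with the base composition of their transcripts, as it did over all genes. Composition was taken as the percentage of guanine minus that of cytosine over all annotated transcripts of a gene. Across the 315 members its Spearman correlation with the log2 fold change was 0.597; it was 0.507 in the 213 KRAB members and 0.715 in the 101 others. Over the 14724 genes tested that have a composition value it was 0.480. These are descriptions across genes of the same 4 libraries, and carry no p-value. The correlation with the GC share was -0.225 and with exon length 0.039. Over the coding sequence alone guanine minus cytosine gave 0.477, and over the 3′ untranslated region alone 0.230.

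Ordered by guanine minus cytosine and divided into 5 equal bands of 63 members, the lowest band (-8.68 to -0.23 percentage points) had 18 members called lower and 0 higher by edgeR's quasi-likelihood test. The highest band (3.01 to 6.14) had 32 higher and 0 lower. Median log2 fold changes ran -0.14, 0.11, 0.13, 0.33 and 0.39 from the lowest band to the highest. Of the 73 members with no more guanine than cytosine, 19 were called lower and 1 higher, ZNF706. Of the 242 with more guanine, 79 were called higher and 4 lower, ZNF792, ZNF69, ZNF557 and ZNF106. KRAB members were richer in guanine, with a median of 1.94 percentage points against 0.56 for those without the box.

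Among single genes, ZNF358 has transcripts of 29.5% guanine and 38.2% cytosine and ZNF316 of 35.7% and 31.1%. ZNF768, with 32.1% guanine and 30.3% cytosine, lay at 1.83 percentage points, near the member median of 1.73, and had a log2 fold change of 1.08. In the finger units guanine did not exceed cytosine in every gene that rose: over all such units of a protein, guanine minus cytosine was -3.99 percentage points in ZNF316 and -13.7 in ZNF768, which rose, and -10.3 in ZNF358 and -12.8 in ZNF536, which fell.

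The composition also differed between the SNP libraries. Across the members, the correlation of guanine minus cytosine with the log2 ratio of SNP b over SNP a was -0.413, and with control b over control a -0.011. With the GC share these correlations were 0.499 and 0.281. Over all genes tested they were -0.311 and -0.032 for guanine minus cytosine and 0.401 and 0.167 for the GC share. For the 4 pairs of an SNP with a control library the correlation with guanine minus cytosine lay between 0.486 (SNP b over control b) and 0.630 (SNP a over control a). The calls were also made with per-library offsets on length, GC and guanine minus cytosine, after which 56 members were called higher and 16 lower. Of the 80 higher calls 46 remained, and of the 23 lower calls 13; 0 became a call in the opposite direction. The lowest band then had 5 members called higher and 8 lower, and the highest 11 and 2. The correlation with guanine minus cytosine was 0.084 with these offsets, and the member median 0.11. The offsets take out each library's trend on composition, so a low correlation was built in. They would also take out any change after SNP that follows composition. A call lost with them therefore cannot tell a composition trend of the libraries from a change after SNP. Of the 10 largest rises all passed with these offsets, several at smaller values: ZNF316 was at 0.86, ZNF146 at 0.41 and ZNF112 at 0.38, while ZNF768 was at 1.09. Of the 10 largest falls ZNF142, ZNF865 and ZNF213 did not pass. ZNF358 was at -0.52 and ZNF423 at -0.33, while ZNF536 was at -0.88.

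**Figure D3:**
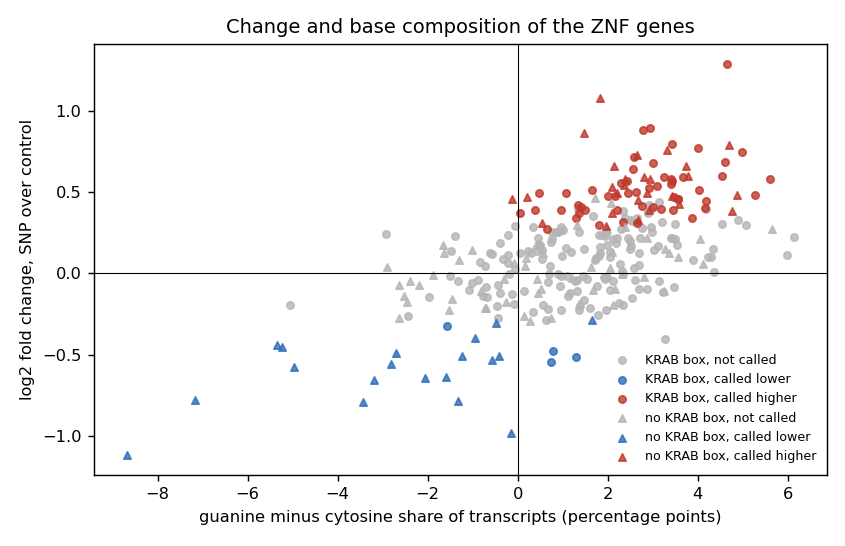
Log2 fold change of SNP over control (vertical axis) against the guanine minus cytosine share of a gene's transcripts in percentage points (horizontal axis) for the classed ZNF genes, with circles for KRAB members and triangles for the others, coloured by call. Calls below 0 lie mostly at the cytosine-rich left, 19 of 23 at or under 0, and calls above 0 at the guanine-rich right, 79 of 80 above 0.

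**Figure D4:**
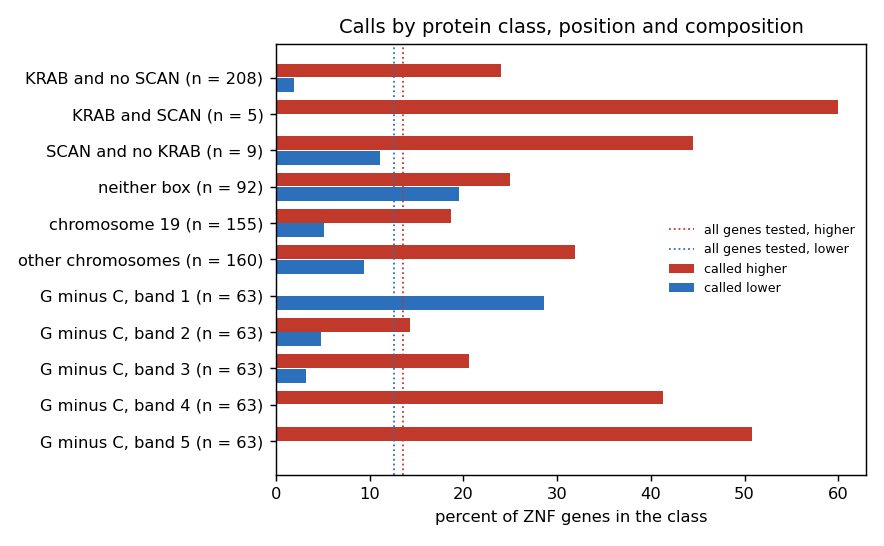
Percent of ZNF genes called higher and lower (horizontal axis) by protein class, chromosome and band of guanine minus cytosine (vertical axis, with the number of genes); dotted lines mark the 13.6% higher and 12.6% lower of all genes tested. Lower calls make up 1.92% of KRAB members with no SCAN box and 28.6% of the lowest band, and higher calls 50.8% of the highest band.

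The ZNF genes with a described role, 32 in a list, included 26 members. Of the 19 that act on transcription and chromatin, 18 were members, 4 were called higher (background 13.6%) and 6 lower (background 12.6%). The higher were ZNF274, ZNF711, ZNF644 and ZNF451, and the lower ZNF521, ZNF423, ZNF687, ZNF462, ZNF592 and ZNF384. With the composition offsets none of the 4 higher calls passed, with ZNF274 at 0.35, ZNF644 at 0.19, ZNF451 at 0.13 and ZNF711 at -0.055. ZNF644, which targets the histone methyltransferases G9a and GLP, had 164 and 163 CPM in control and 219 and 202 CPM in SNP libraries. ZNF711, a partner of the demethylase PHF8, had 65.2 and 59.3 against 85.1 and 77.7 CPM. ZNF451, a SUMO ligase, had 345 and 314 against 421 and 407 CPM.

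Lower were both ZNF592 and ZNF687, which work in a shared complex. ZNF592 had 135 and 144 CPM in control and 95.8 and 103 CPM in SNP libraries. ZNF532, their relative in that complex, had 214 and 224 against 224 and 210 CPM and a log2 fold change of -0.011; with the composition offsets it was called higher, at 0.26. ZNF462, whose loss causes a developmental disorder, had 452 and 423 against 298 and 317 CPM. ZNF384, known from leukemia fusions, had 87.8 and 87.3 against 60.5 and 68.5 CPM, and 27.2% of its windows occur in another gene. Its call was lost with the guanine minus cytosine offsets, at -0.0052 on the log2 scale, and that of ZNF592 was lost too, at -0.19.

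Other factors of this list did not pass. ZNF148 had 166 and 166 CPM in control and 169 and 171 CPM in SNP libraries, and ZNF281 123 and 128 against 139 and 135 CPM; both regulate many promoters. ZNF143, an activator found at many promoters and chromatin loop anchors, had 144, 96, 180 and 214 counts and was outside the threshold. Its log2 fold change was 0.35 (adjusted p-value 0.167, edgeR quasi-likelihood with Benjamini-Hochberg). ZNF445, which guards imprinted regions, was at 0.15 and ZNF217, a repressor amplified in breast cancers, at -0.10; neither passed.

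Of the 6 genes with roles in RNA and ribosomes, 2 were called higher (background 13.6%). ZNF326, which links transcription to splicing, had 118 and 107 CPM in control and 167 and 147 CPM in SNP libraries. ZNF622, a ribosome assembly factor that was not a member for its 78 and 80 control counts, had 12 and 14.2 against 23.7 and 24.2 CPM. ZNF598, the ligase that marks stalled ribosomes, had 47.8 and 48.1 against 40.9 and 52.0 CPM, and its groups overlapped. ZNF638, ZNF346 and ZNF593 had log2 fold changes of 0.21, -0.21 and -0.98 and did not pass. With the guanine minus cytosine offsets ZNF326 was at 0.0096 and ZNF622 at 0.40, and neither passed.

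The retroelement repressors ZNF91 and ZNF93 differed in their values. ZNF91, which silences SVA elements, rose from 291 and 239 to 345 and 343 CPM, with a log2 fold change of 0.37 (SE 0.101); without control b it was 0.24 and did not pass. ZNF93, which silences LINE elements, had 49.7 and 47.2 against 44.7 and 45.8 CPM and a log2 fold change of -0.100 (SE 0.130). The difference between the genes was not tested. Of the 5 genes for mitosis and genome maintenance, ZNF830 rose, at 9.72 and 5.86 against 16.7 and 12.3 CPM, and ZNF335 fell. The ZNF830 call was lost with DESeq2's Wald test and with the composition offsets, where its log2 fold change was 0.39 in place of 0.89. ZNF207, a spindle protein, had 471 and 460 against 551 and 498 CPM and did not pass.

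KRAB proteins act through co-repressors, and a list of 21 symbols held 20 genes. Of these, 10 were called higher and 0 lower (edgeR quasi-likelihood, Benjamini-Hochberg), with a median log2 fold change of 0.30. ZNF274, among the 10 at 0.50, is itself a KRAB member and is also counted among the higher members, so the lists are not separate. Of all genes tested, 13.6% were called higher and 12.6% lower. The list was also more abundant, with a median of 111 TPM against 30.5 TPM for all genes tested. TRIM28 itself, the scaffold that binds the KRAB box, had 241 and 273 CPM in control and 203 and 229 CPM in SNP libraries. Both SNP values were under both control values, and the log2 fold change of -0.25 did not pass (adjusted p-value 0.0721, edgeR quasi-likelihood with Benjamini-Hochberg). SETDB1, the histone methyltransferase recruited by TRIM28, had 176 and 160 against 186 and 189 CPM and did not pass, and neither did its partner ATF7IP at -0.11.

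Of the HP1 proteins, which bind silent chromatin, CBX3 and CBX1 rose and CBX5 did not pass; the difference between them was not tested. CBX3 had 165 and 139 CPM in control and 275 and 191 CPM in SNP libraries, and its log2 fold change of 0.62 ranged from 0.33 to 0.86 when single libraries were left out. CBX1 had 102 and 99.6 against 135 and 118 CPM. Both calls were lost with DESeq2's Wald test, with adjusted p-values of 0.121 for CBX3 and 0.0673 for CBX1. With the guanine minus cytosine offsets CBX3 was at 0.15 and CBX1 at -0.22, and neither passed. CBX5 had 1373 and 1246 against 1279 and 1194 CPM, and its groups overlapped. Of the HUSH complex, which silences retroelements together with SETDB1, MPHOSPH8 and FAM208A rose by 0.43 and 0.38 on the log2 scale, and its partner MORC2 by 0.36; PPHLN1 was at 0.26 and did not pass.

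UHRF1, which guides maintenance of DNA methylation, rose from 99.3 and 99.8 to 161 and 142 CPM. DNMT1, the maintenance methyltransferase, had 263 and 279 against 273 and 276 CPM, with a log2 fold change of 0.016. DNMT3A rose by 0.36, and DNMT3B, at 5.45 to 9.94 CPM, was at -0.55 and did not pass. The remodelers CHD4 and SMARCAD1 rose by 0.33 and 0.42, while CHD3, HDAC1 and HDAC2 did not pass. The median of guanine minus cytosine was 2.50 percentage points in this list against 1.04 in all genes tested. With the guanine minus cytosine offsets 2 were called higher and 1 lower, TRIM28 at -0.28. Without control b, 4 were called higher.

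**Figure D5:**
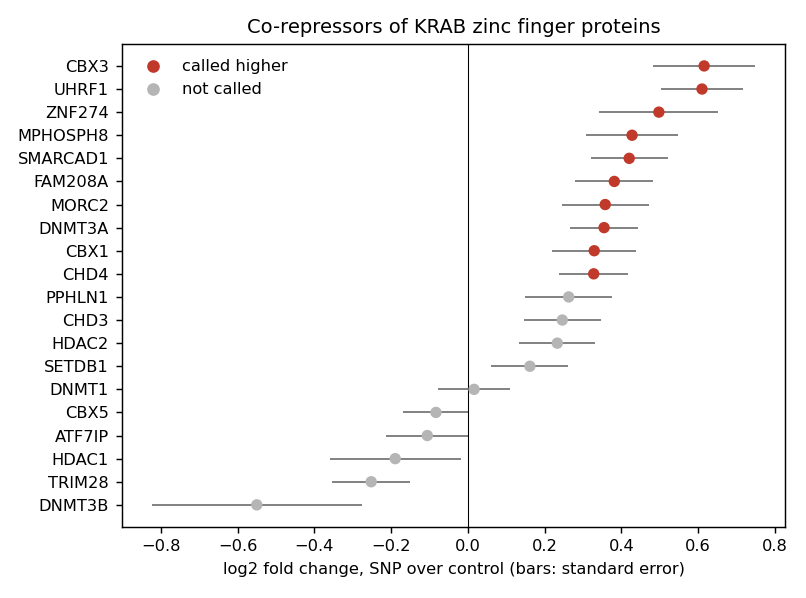
Log2 fold change of SNP over control with its standard error (horizontal axis) for 20 genes of the KRAB co-repressor list (vertical axis), coloured by call. The 10 called genes, which include the KRAB member ZNF274, lie from CHD4 at 0.33 to CBX3 at 0.62. TRIM28 at -0.25 is among those not called.

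Other zinc finger families were read by symbol. Of 16 ZFP genes tested 4 were called higher and 0 lower, of 22 ZSCAN and ZKSCAN genes 4 and 0, of 34 ZBTB genes 8 and 2, and of 26 ZNF genes with a letter after the number 7 and 2 (edgeR quasi-likelihood, Benjamini-Hochberg). The background was 13.6% higher and 12.6% lower among all genes tested. The difference of these families from it was not tested. The median log2 fold changes of these families were 0.30, 0.29, 0.20 and 0.22, against 0.14 for the 315 members. Of the 161 ZNF genes outside the count threshold 135 could be tested, and 13 were called higher and 4 lower, 9.63% and 2.96%.

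Promoter windows were examined because the members form a large duplicated family. RefSeq windows (GRCh38.p14) of 300 bases, 250 before to 50 after a gene's start, were matched by symbol for 279 members. The letters CCGGAAG, the core bound by ETS factors, were present on either strand in 45.9% of the member windows, in 19.2% of the 10416 windows of genes tested and in 10.7% of 27305 windows in all. They were in 40.3% of members called higher and 36.8% of those called lower. The letters CCAATC were in 31.5% of member windows against 19.8% of those of genes tested, and TATAAA in 3.94% against 5.50%. Each string was counted on its own, so matches of different strings may overlap. Windows of ZNF316 and of ZNF865, the largest rise and the largest fall with such a match, are shown with the ETS letters of either strand in capitals.
ZNF316: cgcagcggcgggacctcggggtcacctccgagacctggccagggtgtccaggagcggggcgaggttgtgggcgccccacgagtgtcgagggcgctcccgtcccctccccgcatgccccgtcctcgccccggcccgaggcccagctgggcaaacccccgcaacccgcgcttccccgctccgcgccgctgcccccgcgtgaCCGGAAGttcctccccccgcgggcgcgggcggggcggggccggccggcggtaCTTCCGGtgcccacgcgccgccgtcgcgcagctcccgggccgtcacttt
ZNF865: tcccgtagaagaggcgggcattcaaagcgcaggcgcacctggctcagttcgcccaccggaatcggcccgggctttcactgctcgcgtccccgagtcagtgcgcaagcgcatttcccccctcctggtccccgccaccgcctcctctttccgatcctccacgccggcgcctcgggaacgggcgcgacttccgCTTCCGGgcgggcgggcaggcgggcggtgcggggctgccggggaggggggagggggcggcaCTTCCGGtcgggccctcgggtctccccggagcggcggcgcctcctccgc
They lie at chr7:6637068-6637367 (plus strand) and chr19:55605397-55605696 (plus strand). Each holds 2 matches although one gene rose by 1.29 and the other had a log2 fold change of -0.78. A match describes letters and not a bound site.

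The libraries as a whole set the precision of these values. Of 12 markers of sympathetic neuroblasts 11 had at least 10 counts in each library, among them HAND2 and DBH, while TH was at 0 in all 4. Their summed level was 3373 and 3451 CPM in control and 2677 and 2840 CPM in SNP libraries. The markers went both ways: DBH, at 625 and 722 against 220 and 298 CPM, makes up more than any other of the lower sum, while CHGA and HAND2 rose by 0.91 and 0.41 on the log2 scale. Of 9 markers of fibroblasts, leukocytes, glia and epithelium 1, PDGFRB, reached that count, and PTPRC was at 0; the summed level was 65.4 and 58.2 against 33.6 and 32.5 CPM. Their part in the results was not tested. Standard errors of member log2 fold changes lay between 0.087 and 0.198. Exons of 162 members overlap another gene, and 151 members had under 1% of their windows in another gene; the counting of strand and of shared reads is not given in the sources used here.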

How the data were processed

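RNA of SH-SY5Y cells was sequenced in 4 libraries, 2 control and 2 SNP, grouped by sample title; the labels state 75-base reads and 40 M reads per sample. Reads were aligned to GRCh38 per the submitters' processing notes; the aligner, counter and annotation are not given in the sources used here. The authors deposited whole-number read counts per gene without normalization, TPM scaled within each library, and RPKM per kilobase and read total, per the file headers. Tests used the counts, TPM served to compare levels between genes, and RPKM served for the read totals it implies.

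Counts were tested with edgeR 4.0.16 in R 4.3.3 on the whole table: filterByExpr (minimum count 10, minimum total 15) kept 14759 genes, TMM scaled the libraries, and the quasi-likelihood test set SNP against control without covariates, with Benjamini-Hochberg adjustment and a threshold of 0.05. Each standard error is the absolute log2 fold change over the root of its F value. Library totals ran from 5613144 to 8056550 counts. Precision depends on these totals and on the spread between libraries. Positions, transcripts and base composition are from GENCODE 29, which holds all 315 gene identifiers. Coding sequences of the longest coding transcript were translated for finger and linker counts, since no RefSeq protein table was used; KRAB boxes were called at 6 of 8 and SCAN boxes at 8 of 10 conserved positions in any coding transcript. Tested on simulated data for this comparison, the fit called 91.0% of 200 genes given a log2 change of 1 (14687 genes tested) and 27.5% of 200 given 0.5 (14705 genes tested). It also called 16 and 3 genes that had been given no change.

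Named genes were the 10 largest rises and falls among called members without overlap between groups, the 5 highest in TPM, the 2 nearest the threshold on each side, the list of described roles and the co-repressor list. The members and lists were chosen with earlier results of these data known. Alternatives were other scalings, filters, tools, offsets, thresholds, member rules, a replicate block and leaving out each library.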

Additional observations from a re-analysis of the deposited data

How the results depend on the processing

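The median log2 fold change of the 315 ZNF genes was positive under each alternative, from 0.094 with length and GC offsets and the block to 0.21 with the read totals implied by RPKM. Leaving out each library in turn gave 36 to 84 genes called higher, 14 to 24 called lower, a median of 0.0997 to 0.187, and 4 to 11 co-repressor genes called higher and 0 to 1 lower; the lowest counts came without control b, and each such fit assumes that the lone library varies like the other group. DESeq2's Wald test called 52 ZNF genes and 6 co-repressor genes higher, and a threshold of 0.01 left 45 and 5. The RPKM totals gave 14 lower. Of the 151 genes with under 1% shared windows 41 were higher and 14 lower, and of the 153 without exon overlap 43 and 14; these sets hold fewer genes. With length, GC and guanine minus cytosine offsets 2 co-repressor genes were higher and 1 lower. Whether libraries of the same letter belong together was not tested. The correlation of their deviations was 0.0502 over both groups, and a value over all genes cannot decide this. Across the members, the GC share correlated with b over a at 0.281 in control and 0.499 in SNP libraries. For guanine minus cytosine these correlations were -0.011 and -0.413. With the letter as a replicate block 91 ZNF genes were higher and 27 lower, and of the co-repressors 12 higher and 1 lower. With length and GC offsets and the block, 78 ZNF genes were higher and 33 lower, and 1 co-repressor gene was lower. Some small log2 fold changes among the named genes reversed; the cause was not tested. With length, GC and guanine minus cytosine offsets, CBX1 was at -0.22, MPHOSPH8 at -0.0018, ZNF148 at -0.095, ZNF16 at 0.066, ZNF532 at 0.26, ZNF598 at 0.17, ZNF599 at 0.13, ZNF638 at -0.14, ZNF689 at 0.24, ZNF711 at -0.055, ZNF827 at 0.12 and ZNF93 at 0.075. With length and GC offsets ZNF148 was at -0.084, ZNF532 at 0.0068 and ZNF598 at 0.070, and with the block added at -0.085, 0.0067 and 0.070. With RPKM totals ZNF16 was at 0.039, ZNF532 at 0.060, ZNF598 at 0.018 and ZNF599 at 0.062. When single libraries were left out, values that changed sign ran from -0.026 to 0.059 in DNMT1, from -0.099 to 0.045 in ZNF16, from -0.056 to 0.034 in ZNF532, from -0.23 to 0.12 in ZNF598 and from -0.23 to 0.18 in ZNF599. With 2 libraries a group at this depth, 27.5% of genes simulated at a log2 fold change of 0.5 were called. Those genes could have lower counts than the members, and the rate for members alone was not measured.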
